A study of Homo sapiens with 6 samples.

Results

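The genes described are KLF4, one of the 4 reprogramming factors delivered to the cells, and 9 of its Krüppel-like factor (KLF) paralogs: KLF2, KLF3, KLF5, KLF6, KLF7, KLF9, KLF10, KLF11 and KLF13. They were taken by symbol from the deposited expression table. All 10 were found among its 27788 genes, and all 10 passed the filter on low values. The cells were BJ, an established line of human foreskin fibroblasts, taken 8 days after lentiviral delivery of OCT4 with SOX2 on one polycistronic construct and KLF4 with MYC on another. Every group carried all 4 factors, grew at first in medium with fetal bovine serum, and was then kept on Matrigel in embryonic stem cell medium with serum replacement and bFGF. Cells were sorted by the surface proteins CD13 and CD201 into double-negative cells (neither protein), CD201-only cells (CD201 without CD13) and double-positive cells (both). Each group has 2 libraries of poly-A RNA, and the labels do not say whether they came from separate cultures. P-values therefore measure only the spread between these libraries, which may be technical. No unsorted or uninfected cells entered the comparisons.

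KLF proteins bind GC-rich and CACCC-containing DNA through zinc fingers at the carboxyl end, and the rest of the protein decides whether they activate or repress. KLF4 was one of the original reprogramming factors. In mouse embryonic stem cells Klf2, Klf4 and Klf5 act redundantly in self-renewal. KLF3 recruits the corepressor CtBP, KLF9, KLF10, KLF11 and KLF13 recruit SIN3, and KLF6 and KLF7 are mainly activators.

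Levels are FPKM (fragments per unit of transcript length and of sequencing depth), which are scaled by length so that endogenous genes can be compared. The delivered factors are an exception, because their vector RNA may differ in length from the transcript used for scaling. Their levels relative to other genes, and to each other, are therefore uncertain in size. Log2 changes are limma estimates on log2(FPKM + 1), the first group named minus the second, with a standard error (SE). This scale understates the fold change of low genes such as KLF2 and KLF7. Genes are called, and said to rise or fall, where the p adjusted over all 12210 tested genes lay under 0.05. Relative sequencing depth, read from the steps between the lowest values, ran from 0.728 to 1.0 of the deepest library. Of 10 fibroblast markers, 9 reached a mean of 1 FPKM, and their summed level was 4226 and 4227 FPKM in double-negative cells and 3779 and 3759 in CD201-only cells, against 8526 and 8422 in double-positive cells. The 5 markers of pluripotent cells summed to 98.09 and 93.03 FPKM, 60.01 and 59.34, and 27.84 and 27.93 in the same groups. TDGF1 made up most of that sum, with means of 62.00, 41.91 and 18.90 FPKM. Between double-negative and CD201-only cells 3 of the 4 tested markers rose, beside 21.5% of all genes. NANOG, at means of 3.931 and 4.175 FPKM in those 2 groups, was not called. Of the 9 tested fibroblast markers 8 fell and 1 rose between double-negative and double-positive cells, beside 24.5% of all genes lower and 42.1% higher. The 1 that rose was THY1, at 1644 and 1639 FPKM in double-negative cells against 1382 and 1358 in double-positive cells. These mixed samples do not show whether fewer cells of a kind or less RNA per cell lowers a level. The part of either marker list in the KLF results was not tested.

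KLF4 had the highest FPKM of the KLF genes in every library, although its level beside the paralogs depends on the length used for scaling. The order of the paralogs below KLF4 differed between the sorted groups. In double-negative cells KLF4 was followed by KLF5, KLF13, KLF6, KLF10, KLF3, KLF11, KLF9, KLF7 and KLF2. In CD201-only cells KLF13 and KLF10 stood above KLF5, and KLF2 stood above KLF7. In double-positive cells KLF10, KLF13, KLF6 and KLF3 all stood above KLF5. Neighbours in these orders did not overlap in their 2 libraries, although KLF10 (42.36 and 43.33 FPKM) and KLF13 (42.19 and 41.61 FPKM) nearly met in double-positive cells. The 9 paralogs together held 179.2 and 181.2 FPKM in double-negative cells, 182.9 and 185.6 in CD201-only cells, and 191.2 and 191.4 in double-positive cells. The group means of this total differed less than those of any of the 9 genes in it.

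**Figure D1:**
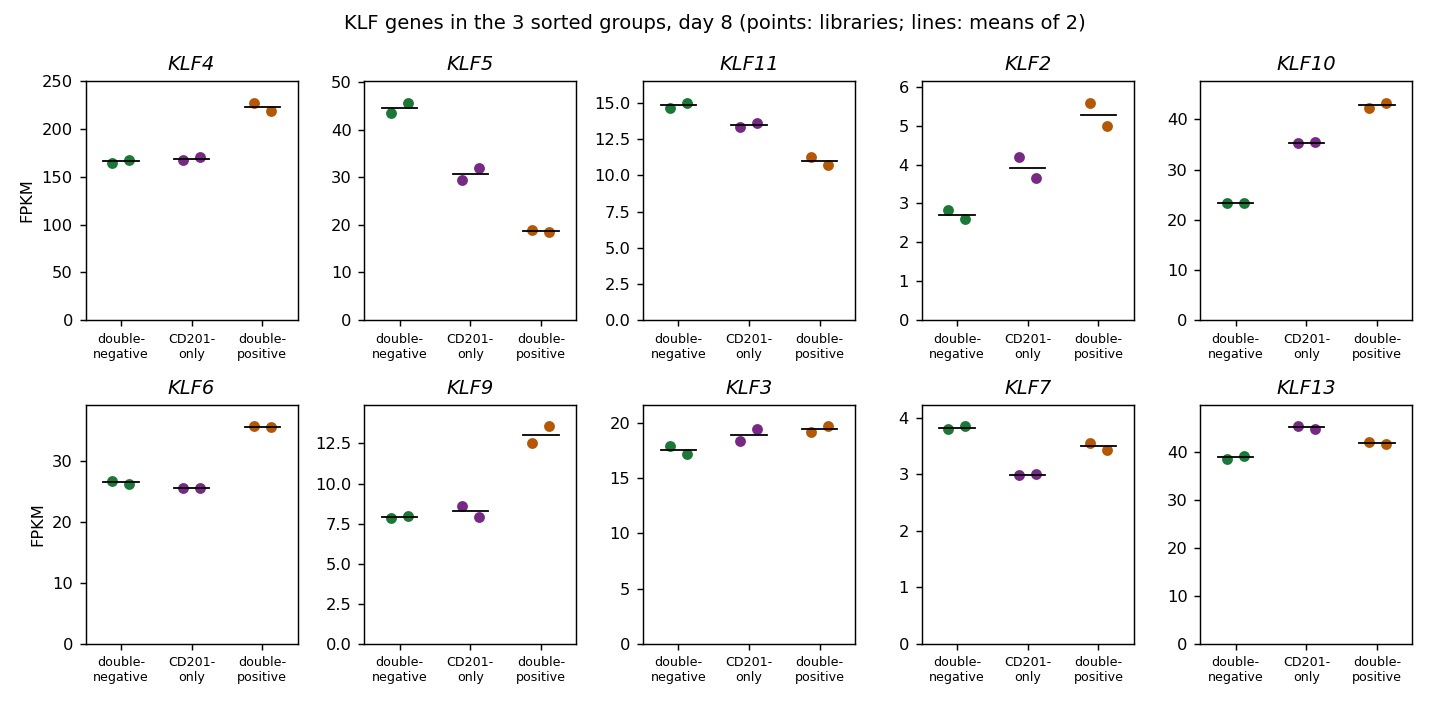
FPKM of each KLF gene (vertical axes, from 0, each with its own scale) in the 2 libraries of each sorted group; points are libraries and lines are means. KLF5 stands at 43.48 and 45.68 FPKM in double-negative cells and 18.86 and 18.48 in double-positive cells, while KLF10 and KLF2 run the other way.

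KLF4, which also drives differentiation of epidermis and gut epithelium, was lower in both CD13-negative groups. It was measured at 164.8 and 167.3 FPKM in double-negative cells and 167.7 and 170.5 FPKM in CD201-only cells, against 227.6 and 219.1 FPKM in double-positive cells. Both double-positive libraries lay above the other 4. Its level was 0.744 times the double-positive one in double-negative cells (log2 change -0.43, SE 0.027, adjusted p = 1.22e-05) and 0.757 times in CD201-only cells (-0.40, adjusted p = 2e-05). Between double-negative and CD201-only cells the change was -0.03 with a 95% interval of -0.09 to 0.04 (adjusted p = 0.487). The table has 1 value per gene, so RNA from the vector and from the endogenous gene cannot be told apart in KLF4. Of 5 keratinocyte markers, 3 reached a mean of 1 FPKM. Their sum was 11.36 and 10.49 FPKM in double-negative cells and 19.44 and 19.19 in CD201-only cells, against 42.51 and 43.97 in double-positive cells, where KRT14 made up 29.13 and 30.34. KRT5 was highest in CD201-only cells, at 9.841 and 9.736 FPKM, against 2.050 and 2.411 in double-negative and 5.676 and 6.181 in double-positive cells. KRT10 was not called in any comparison, and KRT1 was at most 0.0162 FPKM. Of 4 blood cell markers, 2 reached that mean, and CD3E was at 0 in every library. The 4 summed to 32.77 and 31.13 FPKM in double-negative cells and 18.21 and 16.16 in CD201-only cells, against 89.83 and 85.20 in double-positive cells. CD68 (means of 11.33, 8.10 and 54.30 FPKM in the same groups) and CD14 (19.78, 8.937 and 32.91 FPKM) made up most of the sum. PTPRC, which did not reach a mean of 1 FPKM, was highest in double-negative cells (0.837, 0.147 and 0.307 FPKM). The part of these markers in the KLF4 result was not tested.

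MYC, a growth-promoting transcription factor on the same construct as KLF4, followed it closely. KLF4 over MYC was 1.29 and 1.30 in the double-negative libraries, 1.21 and 1.26 in the CD201-only libraries, and 1.29 and 1.27 in the double-positive libraries. The double-negative and double-positive libraries overlapped, and both CD201-only libraries lay just below them. MYC fell slightly in double-negative against CD201-only cells (log2 change -0.09, adjusted p = 0.0298), where KLF4 was not called. As in KLF4, vector and endogenous RNA cannot be told apart in MYC or in the factors of the other construct. A ratio within a library does not depend on the scaling of that library. The size of a ratio with a delivered factor does depend on the transcript lengths used, so such ratios are compared only between groups. The factors of the other construct did not follow KLF4. POU5F1, which encodes OCT4, stood at 5.41 and 5.35 times KLF4 in double-negative cells, 3.166 and 2.997 times in CD201-only cells, and 2.35 and 2.34 times in double-positive cells. POU5F1 over SOX2 stayed between 1.12 and 1.20 in all 6 libraries. KLF4 over the sum of its 9 paralogs was 0.920 and 0.924 in double-negative cells and 0.917 and 0.919 in CD201-only cells, against 1.19 and 1.15 in double-positive cells.

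**Figure D2:**
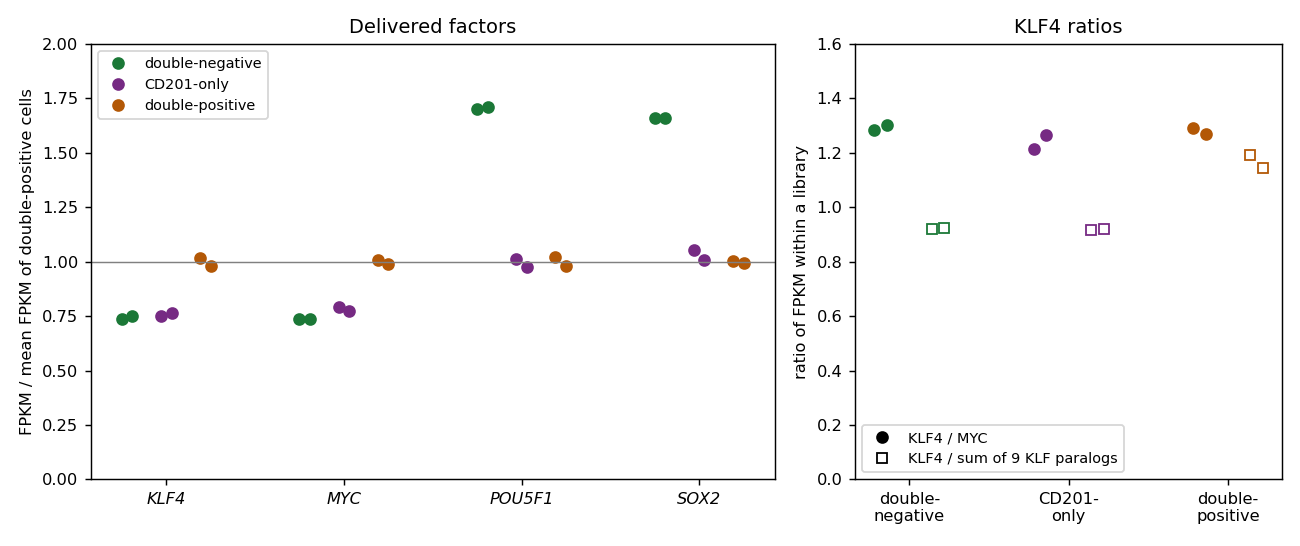
Left, FPKM of the 4 delivered factors in each library divided by the mean of the double-positive libraries; right, KLF4 divided by MYC (filled circles) and by the sum of 9 KLF paralogs (open squares) within each library. KLF4 and MYC lie below 1 in double-negative and CD201-only cells, and their ratio stays between 1.21 and 1.30 in all 6 libraries.

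KLF5, a factor of proliferating basal and intestinal epithelium, had the largest fold change of the 10 genes and was highest in double-negative and lowest in double-positive cells. It was at 43.48 and 45.68 FPKM in double-negative cells and 29.38 and 31.90 FPKM in CD201-only cells, against 18.86 and 18.48 FPKM in double-positive cells. No libraries of different groups overlapped. The rise was 2.39-fold in double-negative against double-positive cells (log2 change 1.21, SE 0.0486, adjusted p = 1.47e-06) and 1.64-fold in CD201-only against double-positive cells (0.68, adjusted p = 2.51e-05). Double-negative cells were also above CD201-only cells (0.53, adjusted p = 0.000215). KLF11, a repressor induced by TGF-beta, had the same order of groups over a smaller range. Its values were 14.69 and 15.02 FPKM in double-negative cells and 13.31 and 13.64 in CD201-only cells, against 11.29 and 10.71 in double-positive cells. Against double-positive cells, KLF11 rose by 0.40 in double-negative cells (SE 0.0472, adjusted p = 0.000259) and by 0.27 in CD201-only cells (adjusted p = 0.00224). Between double-negative and CD201-only cells the change was 0.13 (95% interval 0.02 to 0.24, adjusted p = 0.0663), which passed the threshold with libraries rescaled to equal sums (0.15, adjusted p = 0.04).

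KLF10 and KLF2 took the opposite course and were lowest in double-negative cells. KLF10, a TGF-beta-induced repressor and the closest paralog of KLF11, was at 23.31 and 23.28 FPKM in double-negative cells and 35.21 and 35.53 FPKM in CD201-only cells, against 42.36 and 43.33 FPKM in double-positive cells. The 3 groups were apart. KLF10 fell in double-negative cells against double-positive cells (log2 change -0.85, SE 0.032, adjusted p = 1.12e-06) and against CD201-only cells (-0.58, adjusted p = 2e-05). CD201-only cells were in turn below double-positive cells (-0.27, adjusted p = 0.000336). KLF10 and KLF11, which share their inducer, therefore changed in opposite directions in both comparisons with double-positive cells. KLF2, which is induced by blood flow in endothelium, was low throughout, at 2.825 and 2.597 FPKM in double-negative cells and 4.186 and 3.654 in CD201-only cells, against 5.589 and 4.982 in double-positive cells. It fell in double-negative against double-positive cells, to 0.513 times the level (-0.76, SE 0.0878, adjusted p = 0.000241). It also fell in CD201-only against double-positive cells (-0.35, adjusted p = 0.0113), a call lost without CD201-only replicate 2 (adjusted p = 0.0691) or double-positive replicate 1 (adjusted p = 0.0632). The fall in double-negative against CD201-only cells (-0.41, adjusted p = 0.0106) did not pass with double-negative replicate 2 left out (adjusted p = 0.0685) or with CD201-only replicate 1 left out (adjusted p = 0.0668). Of 5 endothelial markers 2 reached a mean of 1 FPKM. Their sum was 17.16 and 17.63 FPKM in double-negative cells, 26.13 and 28.11 in CD201-only cells, and 19.69 and 21.54 in double-positive cells, and PECAM1 was at most 0.0677 FPKM. TEK made up most of the sum, with means of 13.71, 25.52 and 18.95 FPKM in the same groups. KDR was highest in double-negative cells (3.056, 0.959 and 0.593 FPKM). VWF, which did not reach a mean of 1 FPKM, had the order of KLF2 (0.390, 0.522 and 0.949 FPKM). The sum did not have the order of KLF2, and the part of these markers in the KLF2 result was not tested.

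KLF6 and KLF9 shared the pattern of KLF4, low in both CD13-negative groups. KLF6, which responds early to injury and serum, was at 26.79 and 26.24 FPKM in double-negative cells and 25.55 and 25.50 FPKM in CD201-only cells, against 35.68 and 35.61 FPKM in double-positive cells. Both CD13-negative groups lay below the double-positive libraries. Double-negative cells differed from double-positive cells by -0.41 on the log2 scale (SE 0.0328, adjusted p = 3.6e-05), and CD201-only cells by -0.47 (adjusted p = 2.42e-05). KLF9, induced by glucocorticoid and thyroid hormone, was at 7.859 and 7.989 FPKM in double-negative cells and 8.574 and 7.937 in CD201-only cells, against 12.51 and 13.56 in double-positive cells. Double-negative and CD201-only libraries overlapped, and both lay below double-positive ones. KLF9 fell by 0.65 (SE 0.0612, adjusted p = 8.45e-05) and by 0.60 (adjusted p = 0.000156) in the 2 comparisons with double-positive cells. Between double-negative and CD201-only cells the change of KLF6 was 0.05 (95% interval -0.02 to 0.13, adjusted p = 0.248) and that of KLF9 was -0.05 (-0.20 to 0.09, adjusted p = 0.541). Within a library, KLF5 over KLF6 was 1.62 and 1.74 in double-negative cells and 1.15 and 1.25 in CD201-only cells, against 0.529 and 0.519 in double-positive cells, so the order of this pair was reversed.

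The promoters of KLF5, KLF6 and KLF2 are shown because these genes changed in different directions while all 3 windows hold the letters that KLF proteins recognise. Windows run from 250 bases before to 50 after an annotated start (RefSeq, GRCh38.p14) and are written 5′ to 3′ on the gene's strand, with capitals marking CACCC or GGGCGG on either strand. KLF5 is at chr13:73058755-73059054 on the plus strand, the downstream of its 2 annotated starts. KLF6 is at chr10:3785160-3785459 on the minus strand and KLF2 at chr19:16324576-16324875 on the plus strand.
KLF5: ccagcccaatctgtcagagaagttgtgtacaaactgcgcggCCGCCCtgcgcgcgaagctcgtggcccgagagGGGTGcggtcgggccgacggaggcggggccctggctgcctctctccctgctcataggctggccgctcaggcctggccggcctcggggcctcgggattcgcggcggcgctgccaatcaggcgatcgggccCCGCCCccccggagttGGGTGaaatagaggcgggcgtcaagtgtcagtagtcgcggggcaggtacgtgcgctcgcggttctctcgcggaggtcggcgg
KLF6: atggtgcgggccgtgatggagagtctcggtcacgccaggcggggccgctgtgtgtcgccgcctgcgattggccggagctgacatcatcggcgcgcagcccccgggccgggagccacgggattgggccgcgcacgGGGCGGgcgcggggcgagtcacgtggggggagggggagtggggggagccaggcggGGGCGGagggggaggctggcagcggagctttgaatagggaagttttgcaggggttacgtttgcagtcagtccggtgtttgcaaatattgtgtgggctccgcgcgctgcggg
KLF2: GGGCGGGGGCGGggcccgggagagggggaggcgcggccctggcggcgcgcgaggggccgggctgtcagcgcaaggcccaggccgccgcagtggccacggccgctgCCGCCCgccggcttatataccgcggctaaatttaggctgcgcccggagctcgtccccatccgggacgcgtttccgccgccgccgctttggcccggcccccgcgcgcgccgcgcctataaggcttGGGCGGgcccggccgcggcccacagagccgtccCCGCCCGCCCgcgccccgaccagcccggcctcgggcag

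The KLF5 window held 2 matches to CACCC and 2 to GGGCGG, the KLF6 window 0 and 2, and the KLF2 window 0 and 6, where matches could overlap themselves. For the KLF genes, windows on chromosome 8, where KLF10 lies, were left out, which was not done for the windows of all genes. KLF3 had no window. The other 8 genes had 13 windows in all. CACCC was in 7 of the 13, against 59.9% of all 35116 windows, and GGGCGG in 8, against 45.0%. The AP-1 letters TGANTCA were in 0 of the 13, against 7.71% of all windows. The expression values were aligned to another build, and no binding was measured, so these letters are a description of the windows.

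**Figure D3:**
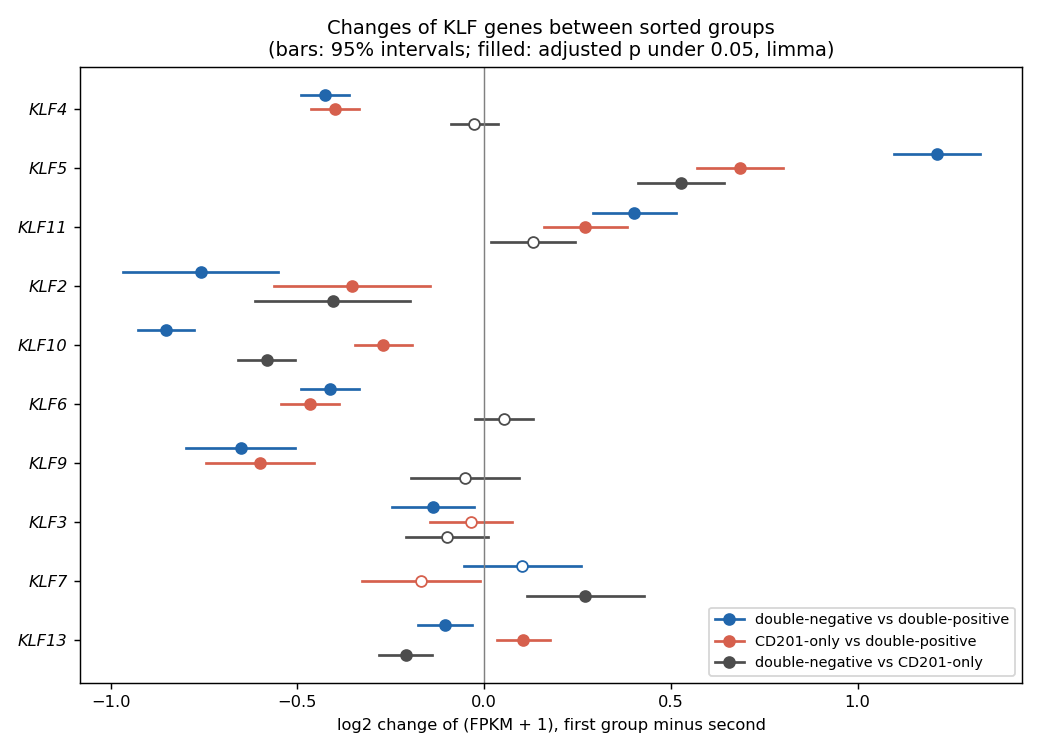
Log2 changes of the 10 KLF genes on log2(FPKM + 1) (horizontal axis, first group minus second) in the 3 comparisons; bars are 95% intervals and filled points have an adjusted p under 0.05 in limma. KLF5 and KLF11 lie right of 0 in both comparisons with double-positive cells, and KLF4, KLF2, KLF10, KLF6 and KLF9 lie left of it.

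KLF3, KLF7 and KLF13 changed least. KLF13, which with SIN3 can repress and in T cells activates CCL5, was the most abundant paralog on average. It was at 38.50 and 39.28 FPKM in double-negative cells and 45.36 and 44.93 FPKM in CD201-only cells, against 42.19 and 41.61 FPKM in double-positive cells, and the groups were apart. KLF13 fell in double-negative against CD201-only cells (log2 change -0.21, SE 0.0303, adjusted p = 0.00175). Its fall in double-negative against double-positive cells (-0.11, adjusted p = 0.0182) grew to -0.21 under median-ratio rescaling. It did not pass with double-negative replicate 1 (adjusted p = 0.102) or double-positive replicate 1 (adjusted p = 0.0601) left out, or without limma's variance trend (adjusted p = 0.0526). Its rise in CD201-only against double-positive cells (0.11, adjusted p = 0.0207) was 0.04 under median-ratio rescaling (adjusted p = 0.323) and 0.02 with equal sums (adjusted p = 0.671), and was also lost without any 1 of 3 libraries and without the trend. These 3 were CD201-only replicates 1 and 2 (adjusted p = 0.0919 and 0.0644) and double-positive replicate 2 (adjusted p = 0.0662).

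KLF7, known for its role in axon growth, was lowest in CD201-only cells. It was at 3.795 and 3.842 FPKM in double-negative cells and 2.988 and 2.996 in CD201-only cells, against 3.553 and 3.427 in double-positive cells. It rose in double-negative against CD201-only cells (log2 change 0.27, SE 0.0664, adjusted p = 0.0173), which no longer passed with 1 library of either group removed (adjusted p = 0.0685 to 0.0827). Against double-positive cells it was not called in double-negative (0.10, 95% interval -0.06 to 0.26, adjusted p = 0.213) or CD201-only cells (-0.17, -0.33 to -0.01, adjusted p = 0.0626). The CD201-only change did pass after rescaling by median ratios (-0.22, adjusted p = 0.028), with equal sums (-0.24, adjusted p = 0.0191) and without the trend (adjusted p = 0.0135). KLF3, the CtBP-dependent repressor, had the narrowest range, with 17.92 and 17.22 FPKM in double-negative cells, 18.34 and 19.47 in CD201-only cells, and 19.14 and 19.68 in double-positive cells. CD201-only and double-positive libraries overlapped. KLF3 fell in double-negative against double-positive cells (-0.14, SE 0.0463, adjusted p = 0.0344), with -0.24 under median-ratio rescaling. That call was lost without any double-negative or double-positive library (adjusted p = 0.0565 to 0.168) and without the trend (adjusted p = 0.0516). Its antisense gene KLF3-AS1 was at 0.0330 to 0.408 FPKM. The kit kept strand, and the sources used here do not say whether counting used it.

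Between double-negative and double-positive cells, 2 KLF genes rose and 7 fell, and KLF7 was not called. Of all genes tested 66.6% were called there, 42.1% higher and 24.5% lower, so 7 KLF genes of 10 lower stand beside the 24.5% and 2 of 10 higher beside the 42.1%. Their median log2 change was -0.27, against 0.11 for all genes. Between CD201-only and double-positive cells 3 rose and 5 fell, against 58.7% of all genes called, 35.8% higher and 22.9% lower, with medians of -0.22 and 0.08. Between double-negative and CD201-only cells 2 rose and 3 fell, against 37.9% called, 21.5% higher and 16.5% lower, with medians of -0.04 and 0.04. These 5 calls dropped to 3 without double-negative replicate 2 or CD201-only replicate 1. The first 2 comparisons share the double-positive libraries. In limma's F test among the groups 9 of 10 KLF genes passed, against 73% of all genes, and KLF3 had an adjusted p = 0.0687. Rescaling changed the balance of all calls. Higher calls were 63.2% of all calls between double-negative and double-positive cells and 50.2% under median-ratio rescaling, and 61% and 50.9% between CD201-only and double-positive cells. In double-negative against CD201-only cells they were 56.6%, and 46.4% after that rescaling. KLF counts stayed at 2 higher and 7 lower in the first of these, became 2 higher and 6 lower in the second, and stayed at 2 higher and 3 lower in the last. With libraries rescaled to equal sums, higher calls were 55.4%, 47% and 62.5% of all calls in the 3 comparisons, and the KLF counts were 2 higher and 7 lower, 2 and 6, and 3 and 3.

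Of 17 other KLF and SP genes 8 passed the filter, KLF8 lay just under it (a mean of 0.913 FPKM in double-negative cells, 0.949 in CD201-only cells and 1.08 in double-positive cells), and KLF18, SP5 and SP8 were listed at 0 in every library. KLF17, a marker of naive human pluripotent cells, was at most 0.0937 FPKM. Between double-negative and double-positive cells 5 of the 8 rose, 0 fell and 3 were not called (median log2 change 0.27, against 0.11 for all genes). Between CD201-only and double-positive cells 2 rose and 0 fell (median 0.08), and between double-negative and CD201-only cells 2 rose and 0 fell (median 0.19). Of all genes, 42.1% were higher and 24.5% lower in the first of these 3 comparisons, 35.8% and 22.9% in the second, and 21.5% and 16.5% in the last. With median-ratio rescaling the counts of the 8 genes became 3 higher and 1 lower, 1 and 1, and 2 and 0. The rise of SP1, a ubiquitous activator, between CD201-only and double-positive cells (0.12, adjusted p = 0.0472) was lost under most alternatives, with 0.06 under median-ratio rescaling (adjusted p = 0.281) and 0.08 without CD201-only replicate 1 (adjusted p = 0.235). It was also lost in a fit of those 2 groups alone (adjusted p = 0.0813), with no filter, without the trend and without any double-negative or double-positive library (adjusted p = 0.0546 to 0.117). SP9, known from forebrain interneuron development in mouse, was at 8.419 and 7.305 FPKM in double-negative cells and 4.552 and 5.033 in CD201-only cells, against 3.229 and 2.641 in double-positive cells. SP9 rose by 1.17 (adjusted p = 5.45e-05), by 0.56 in CD201-only against double-positive cells (adjusted p = 0.00264) and by 0.61 in double-negative against CD201-only cells (adjusted p = 0.00324). KLF15, a regulator of metabolism in liver and muscle, was at 2.969 and 2.913 FPKM in double-negative cells and 1.381 and 0.8305 in CD201-only cells, against 0.9442 and 0.9973 in double-positive cells. KLF15 rose 3.03-fold in double-negative against double-positive cells (1.00, adjusted p = 0.000427, and 1.51 with a pseudocount of 0.1) and against CD201-only cells (0.92, adjusted p = 0.00162).

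The counts for genes of KLF cofactors and of KLF protein turnover are to be read beside those of all genes, which were called higher more often than lower. The shares were 42.1% against 24.5% between double-negative and double-positive cells and 35.8% against 22.9% between CD201-only and double-positive cells. Between double-negative and CD201-only cells they were 21.5% against 16.5%. Of 12 cofactor genes 8 rose and 0 fell between double-negative and double-positive cells (median 0.23), 7 rose and 1 fell between CD201-only and double-positive cells (median 0.23), and 2 rose and 0 fell between double-negative and CD201-only cells (median 0.04). Under median-ratio rescaling the cofactor counts were 5 higher and 3 lower, 7 and 2, and 1 and 2. The histone deacetylase HDAC2, a SIN3 complex subunit, was at 23.83 and 24.74 FPKM in double-negative cells, against 17.26 and 17.08 in double-positive cells (0.48, adjusted p = 6.56e-05). The scaffold SIN3A was at 9.596 and 9.762 FPKM in CD201-only cells, against 7.494 and 7.593 in double-positive cells (0.32, adjusted p = 0.00115). SIN3B was the 1 cofactor gene that fell in that comparison, at 13.94 and 13.47 FPKM against 15.92 and 15.52 (-0.19, adjusted p = 0.0137). CTBP1 and CTBP2, the partners of KLF3, were not called in any of the 3 comparisons. Of 9 ubiquitin enzyme genes 6 rose and 1 fell between double-negative and double-positive cells (median 0.24), 3 rose and 0 fell between CD201-only and double-positive cells (median 0.14), and 2 rose and 1 fell between double-negative and CD201-only cells (median 0.07). After the same rescaling the counts were 4 higher and 2 lower, 2 and 0, and 1 and 1. FBXW7, a ligase subunit that targets KLF2 and KLF5, was at 7.106 and 6.307 FPKM in double-negative cells, against 4.126 and 4.336 in double-positive cells (0.56, adjusted p = 0.00069).

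Genes upstream of the KLF genes went both ways. Of all genes, 42.1% were higher and 24.5% lower between double-negative and double-positive cells. The shares were 35.8% and 22.9% between CD201-only and double-positive cells, and 21.5% and 16.5% between double-negative and CD201-only cells. Of 9 TGF-beta and SMAD genes 2 rose and 5 fell between double-negative and double-positive cells (median -0.44), 1 rose and 4 fell between CD201-only and double-positive cells (median -0.12), and 2 rose and 4 fell between double-negative and CD201-only cells (median 0.04). Under median-ratio rescaling the counts were 1 higher and 5 lower, 1 and 4, and 0 and 4. The ligand TGFB2 was at 1.521 and 1.563 FPKM in double-negative cells and 2.415 and 2.126 in CD201-only cells, against 8.100 and 7.756 in double-positive cells (-1.81, adjusted p = 1.81e-06, and -1.45, adjusted p = 6.2e-06). The receptor TGFBR2 was at 15.67 and 16.09 FPKM, 13.78 and 14.78 FPKM, and 35.51 and 35.49 FPKM in the same groups (-1.11, adjusted p = 1.5e-06, and -1.26, adjusted p = 1.18e-06). TGFB2 and TGFBR2 thus fell in both comparisons with double-positive cells, where KLF10 fell and KLF11 rose.

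Of 7 genes of the ERK5 cascade that induces KLF2 and KLF4 in endothelium, 6 were tested. Between double-negative and double-positive cells 2 rose and 3 fell (median -0.14), between CD201-only and double-positive cells 1 rose and 5 fell (median -0.26), and between double-negative and CD201-only cells 3 rose and 0 fell (median 0.09), beside 21.5% of all genes higher and 16.5% lower. In the first 2 comparisons 42.1% of all genes were higher and 24.5% lower, and 35.8% and 22.9%. Under median-ratio rescaling the counts were 1 higher and 3 lower, 1 and 5, and 1 and 1. MEF2D, a transcription factor at the end of the cascade, was at 15.46 and 16.32 FPKM in double-negative cells and 14.27 and 13.97 in CD201-only cells, against 20.48 and 21.24 in double-positive cells (-0.37, adjusted p = 0.000321, and -0.53, adjusted p = 6.41e-05). Its paralog MEF2C was at 3.782 and 4.473 FPKM, 1.091 and 1.284 FPKM, and 1.871 and 1.976 FPKM in the same groups. It rose in double-negative against double-positive cells (0.81, adjusted p = 0.000297) and fell in CD201-only against double-positive cells (-0.42, adjusted p = 0.00849, and -0.66 with a pseudocount of 0.1). Of 8 genes upstream of or co-induced with KLF9, 5 were tested. Of these 1 rose and 2 fell, 0 rose and 2 fell, and 1 rose and 0 fell in the 3 comparisons in that order, with medians of -0.06, -0.19 and 0.14, and median-ratio rescaling added 1 lower call in the last. The thyroid hormone receptor gene THRA was at 12.17 and 12.62 FPKM in double-negative cells and 12.67 and 13.08 in CD201-only cells, against 15.50 and 15.94 in double-positive cells (-0.32, adjusted p = 0.000695, and -0.27, adjusted p = 0.00196). FKBP5, a glucocorticoid-induced gene, was at 3.559 and 3.519 FPKM in double-negative cells, against 2.474 and 2.534 in CD201-only cells (0.37, adjusted p = 0.00572). FKBP5 also rose in double-negative against double-positive cells (0.31, adjusted p = 0.00631), where KLF9 fell. TSC22D3, of the same list, fell in double-negative (-0.37, adjusted p = 0.00191) and CD201-only cells (-0.19, adjusted p = 0.0353) against double-positive cells. The CD201-only call of TSC22D3 was lost with no filter (adjusted p = 0.0676).

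Of 16 genes described in the literature as direct KLF4 targets, 13 were tested. Between double-negative and double-positive cells 5 rose, 8 fell and 0 were not called (median -1.09), beside 42.1% of all genes higher and 24.5% lower. Between CD201-only and double-positive cells 4 rose and 8 fell (median -0.73), beside 35.8% of all genes higher and 22.9% lower. Between double-negative and CD201-only cells 2 rose and 6 fell (median -0.27), or 2 and 7 under median-ratio rescaling, beside 21.5% and 16.5% of all genes without rescaling. The list holds both activated and repressed targets, and several genes on it are regulated by other factors too. SNAI2, a mesenchymal repressor that KLF4 represses in epithelial cells, was at 4.903 and 4.835 FPKM in double-negative cells and 4.836 and 4.811 in CD201-only cells, against 20.42 and 21.10 in double-positive cells (-1.89, adjusted p = 3.04e-07, and -1.90, adjusted p = 4.02e-07). NOS3, the endothelial nitric oxide synthase activated by KLF2 and KLF4, was at 3.113 and 3.254 FPKM in double-negative cells and 10.71 and 11.55 in CD201-only cells, against 25.22 and 24.24 in double-positive cells. The change was -2.62 between double-negative and double-positive cells (adjusted p = 1.13e-07), -1.09 between CD201-only and double-positive cells (adjusted p = 5.83e-06), and -1.53 between double-negative and CD201-only cells (adjusted p = 4.03e-06). CDH1, the epithelial cadherin that KLF4 activates, was chosen after its values were seen. It was at 2.634 and 2.369 FPKM in double-negative cells and 3.094 and 2.967 in CD201-only cells, against 1.041 and 1.182 in double-positive cells, so it was higher where KLF4 was lower (0.73, adjusted p = 0.000247, and 0.93, adjusted p = 8.57e-05).

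**Figure D4:**
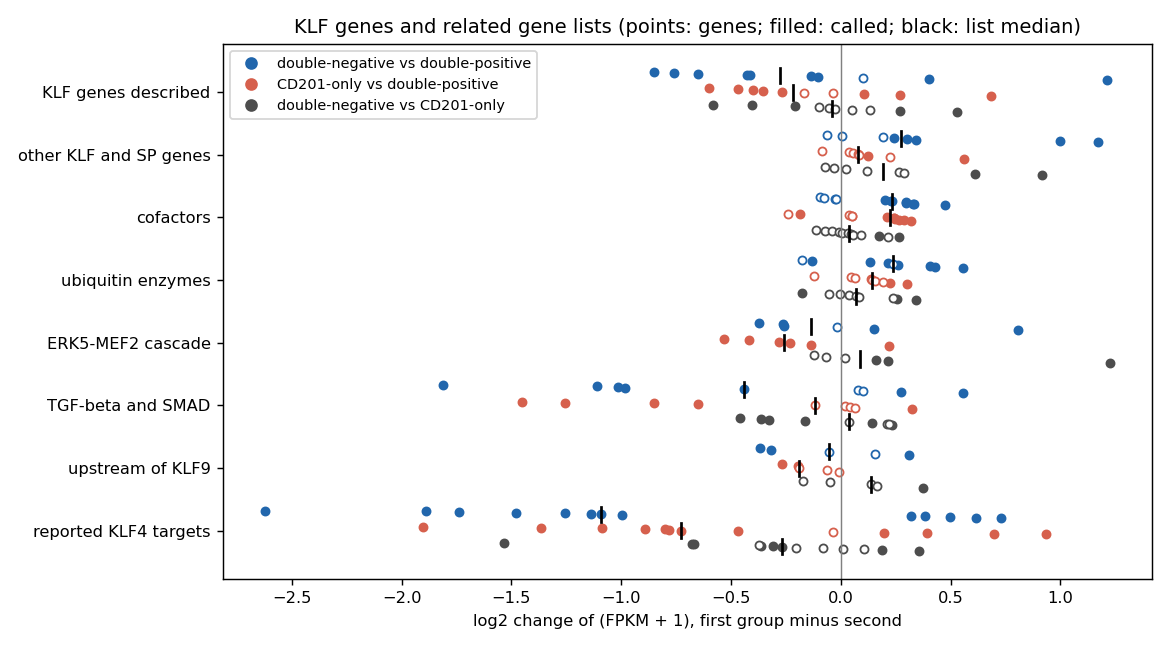
Log2 changes on log2(FPKM + 1) (horizontal axis, first group minus second) of the 10 KLF genes and of the tested genes of 7 related lists in the 3 comparisons; points are genes, filled where called, and black bars are medians. Reported KLF4 targets spread from -2.62 for NOS3 to 0.93 for CDH1, and cofactor genes stay between -0.24 and 0.48.

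The genes whose profile over the 6 libraries was most like that of KLF4 were sought among 6140 other genes averaging 10 FPKM or more. The measure was the distance between log2(FPKM + 1) values centred on each gene's mean. The nearest 5 were NDST1, a heparan sulfate sulfotransferase (distance 0.0404), LY6E, a surface protein anchored by lipid (0.0415), YIF1A, a transport protein of the Golgi (0.044), TTC3, a ubiquitin ligase (0.0471), and CTSD, a lysosomal protease (0.053). NDST1 was at 27.41 and 27.26 FPKM in double-negative cells and 27.86 and 28.13 in CD201-only cells, against 37.16 and 35.65 in double-positive cells. MYC came at place 17 (0.0813), while SOX2 was at place 5526 and POU5F1 at place 5613. Nearest to KLF13, the most abundant paralog, were CDC42BPB, a kinase of the cytoskeleton (0.0245), MAP4, a microtubule-associated protein (0.0291), NACC2, a transcriptional repressor (0.0429), VCL, vinculin (0.0448), and INPP4A, a phosphatase of phosphoinositides (0.0455). The 6 libraries hold only 3 groups, so likeness over them rests on few independent points.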

How the data were processed

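RNA was measured in 6 libraries of sorted BJ cells, and each column of values was matched to a library by name, with 0 columns left over. The authors deposited 1 table of FPKM values per gene. STAR and Cuffnorm with the builds hg19 and GRCh37 are named in the submitters' processing notes, while versions, options, annotation and Cuffnorm's scaling are not recorded there or in the labels. Scaling can shift all changes of a library together, so 2 rescalings were tried. Counts were not used. Genes averaging 1 FPKM or more over 6 libraries were analysed as log2(FPKM + 1), which understates fold changes of low genes. One limma fit (3.58.1, R 4.3.3; variance trend, 3 residual degrees of freedom) held all 3 groups, with Benjamini-Hochberg adjustment over all tested genes and calls under 0.05. The fit was tested on simulated data. Python 3.11.15, pandas 2.3.3, numpy 2.4.6 and matplotlib 3.10.9 did the rest. Relative depth came from ratios between genes under 0.15 FPKM.

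The members, the gene lists and the rule for named genes were chosen with earlier results of these data known. The rule names all 10 KLF genes, up to 2 called genes with the largest change per list and comparison, and the 5 genes nearest in profile to KLF4 and to the most abundant paralog. Alternatives were a pseudocount of 0.1, no filter, median-ratio and equal-sum rescaling, limma without trend, a replicate block, only the 2 groups compared, and leaving out each library.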

Additional observations from a re-analysis of the deposited data

How the results depend on the processing

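KLF4, KLF5, KLF6, KLF9, KLF10 and KLF11 kept direction and call in both comparisons with double-positive cells under every alternative run. Of 390 alternative values of the KLF changes, 363 kept direction and side of the threshold, 22 lost the call, 4 gained it and 1 changed sign: KLF3 in CD201-only against double-positive cells, which was never called there and ran from -0.0772 to 0.0045 when 1 library was left out. Leaving out 1 library gave 2888 to 4903 called genes and 3 to 5 called KLF genes between double-negative and CD201-only cells, against 4632 and 5 with all libraries, with 2888 and 3040 genes without double-negative replicates 1 and 2, and 3 KLF genes without double-negative replicate 2 or CD201-only replicate 1. An arm of 1 library is then assumed to vary like the others. The other counts stayed within 1.5 times. Replicate differences correlated across genes at 0.0761, -0.0727 and 0.117 between pairs of groups, so the numbers were not taken as pairing libraries. With the replicate block 8110, 7189 and 4590 genes were called in the 3 comparisons, against 8130, 7165 and 4632, and no call of the 10 KLF genes changed. Fragment counts behind each value are unknown, which limits KLF2 and KLF7 most.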
